A study of Drosophila melanogaster with 3 samples.

Results

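The heterochromatic scaffolds 2LHET, 3LHET and 3RHET hold sequence from the pericentric blocks of Drosophila melanogaster chromosomes 2 and 3 that is not joined to the arm sequences. They were described as all 10 kb bins with 20 or more array probes on these scaffolds, which gave 472 of the 13555 bins of the series. 2LHET contributed 25 bins, 3LHET 232 and 3RHET 215. Of the 511 bins of these scaffolds that held a probe, the other 39 had fewer than 20.

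The series is a circular chromosome conformation capture (4C) experiment in S2-DRSC cells, an embryonic Drosophila cell line. In 4C, chromatin is cross-linked, cut (here with DpnII) and ligated, and the DNA joined to a chosen bait fragment is amplified by inverse PCR. There was 1 tiling array for each of 3 baits, all insulator binding sites: BaitA (3R, 91997 to 92920), BaitB (2L, 8485115 to 8485894) and BaitC (3R, 384440 to 385252). The 4C product of control cells was labelled with Cy5, and DpnII-cut DNA without ligation, labelled with Cy3, was the reference on every array. All values are log2 ratios of 4C product over unligated DNA with the array median set to 0, so 1 is a doubling over the median probe. With 1 array per bait no value has a replicate error, no test between arrays or regions was possible, and every spread given is over bins or probes of 1 array.

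Pericentric heterochromatin is rich in satellite repeats and transposons and is packed by heterochromatin protein 1 on methylated histones. In the nuclei of fly cells the pericentric blocks of different chromosomes gather into a common compartment, and inactive chromatin in general tends to contact other inactive chromatin. Some active genes, such as light, lie within these blocks. The deposited peak-to-feature tables held 656 BaitA, 366 BaitB and 277 BaitC peaks on the 3 scaffolds, and paired 0 of them with a gene. None of the 33 listed genes of pericentric heterochromatin was placed on these scaffolds in those tables. The tables held no gene entry of any kind on the 3 scaffolds. These counts therefore do not show whether genes lie at or near the peaks. The regions are therefore named by scaffold and position in the coordinates of the files, whose scaffold lengths are those of Release 5. No gene, exon or intron is assigned to them here.

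The scaffolds are covered thinly. 2LHET (368872 bp) held 5.55 probes per kb, 3LHET (2555491 bp) held 9.06 and 3RHET (2517507 bp) held 8.29, against 16.8 on the arm 3L. The longest stretches without a probe were 58191, 50709 and 76062 bp on 2LHET, 3LHET and 3RHET. At the edge of the rule, the 20 scaffold bins with 20 to 29 probes averaged 2.43 ± 0.55 (SD over bins) on the BaitA array, 1.65 ± 0.45 on the BaitB array and 0.63 ± 0.33 on the BaitC array. The 19 left-out bins with 10 to 19 probes averaged 2.61 ± 0.78, 1.87 ± 0.59 and 0.46 ± 0.46 in the same arrays.

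The scaffold bins lay above the euchromatic arms in all 3 arrays, and by the largest amount on the BaitA array. Their mean over the 3 scaffolds together did not exceed that of the Y chromosome scaffold YHET on any array. YHET is the background level with little probe spread. The 34 YHET bins averaged 2.15 ± 0.33, 1.80 ± 0.32 and 2.11 ± 0.50 on the arrays of BaitA, BaitB and BaitC. Taken singly on the BaitA array, 2LHET (2.28) and 3RHET (2.25) lay above the YHET mean, by less than its SD, and 3LHET (1.74) below. The part of this background level in the difference from the arms was not tested. The scaffold bins averaged 2.00 ± 0.89 on the BaitA array, against 0.10 ± 1.02 on the arms without the bait, a difference of 1.90. On the BaitB array they averaged 1.08 ± 0.67, against -0.14 ± 0.95 on the arms without the bait, a difference of 1.22. On the BaitC array they averaged 0.54 ± 0.42, against 0.01 ± 0.54, a difference of 0.53. The BaitC array has a narrower scale, since the SD over all its probes was 1.50, against 2.45 for BaitA and 2.50 for BaitB. In units of the SD over arm bins the differences were 1.86 (BaitA), 1.28 (BaitB) and 1.00 (BaitC), so the order of the arrays was the same on that scale.

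Most scaffold bins passed a ratio of 1 on the BaitA array and few did on the BaitC array. On the BaitA array 422 of 472 bins were at or above 1 (89.4%, exact 95% binomial interval 86.3 to 92.0%), where 26.5% of all bins of the array were. With BaitB, 276 were (58.5%, 53.9 to 63.0%), with 24.7% of all bins. On the BaitC array 58 were (12.3%, 9.46 to 15.6%), with 6.36% of all bins. The intervals cover counting error only, and neighbouring bins are not independent. On YHET, 34 of 34 bins were at or above 1 on the BaitA array and on the BaitB array, and 33 (97.1%) on the BaitC array. At or above 1 in all 3 arrays were 37 bins, or 7.84% (3.90% of all bins), and 40 were below 1 in all 3, or 8.47% (61.9% of all bins). Below 0 lay 2 bins on the BaitA array (0.424%, with 42.1% of all bins), 29 on the BaitB array (6.14%, with 43.1%) and 42 on the BaitC array (8.90%, with 42.9%). At or above 2 were 211 BaitA bins (44.7%, with 7.82% of all bins). For BaitB 28 were (5.93%, with 4.77%) and for BaitC 3 (0.636%, with 1.11%). At or above 3 were 59 BaitA bins (12.5%, with 1.07%), and 53 of the 59 lay on 3RHET. For BaitB 2 were (0.424%, with 1.34%) and for BaitC 0 (with 0.177%). The BaitB share was thus near that of all bins at a limit of 2 and below it at 3. The BaitC share was below it at both limits. The BaitA value exceeded the BaitC value in 457 of the 472 bins (96.8%, with 56.0% of all bins), and the BaitB value exceeded the BaitC value in 369 (78.2%, with 52.7%). Counts at fixed limits and between arrays use unscaled values. The part of the narrower scale of the BaitC array (probe SD 1.50, against 2.45 and 2.50) in them was not tested.

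**Figure D1:**
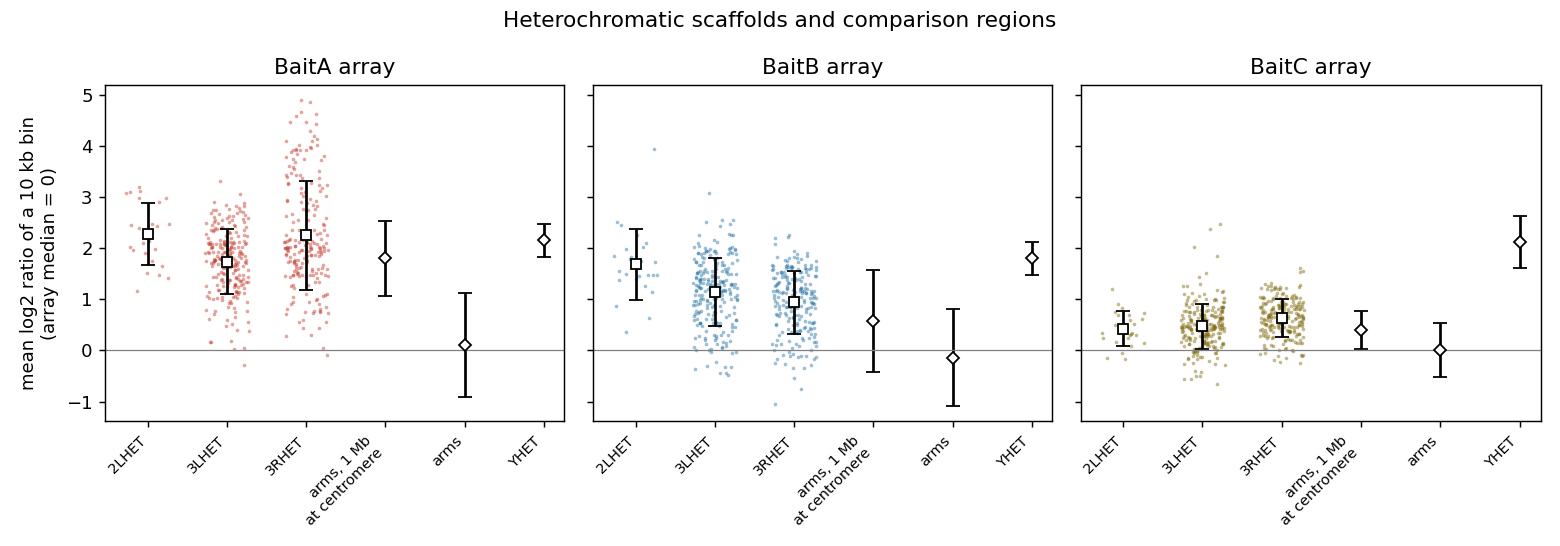
Mean log2 ratio of 10 kb bins in each array. Coloured points are single bins of 2LHET, 3LHET and 3RHET, white squares with bars are their means with the SD over bins, and white diamonds with bars are the means and SDs of the comparison regions. The scaffolds sit above the arms in each panel, and 3RHET reaches 4.89 on the BaitA array. YHET, the background level, averages 2.15, 1.80 and 2.11 on the arrays of BaitA, BaitB and BaitC.

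Against the arm sequence that borders the centromere, the difference was smaller than over the whole arms. The 1 Mb of 2L and 3L at the centromere end averaged 1.80 ± 0.73 on the BaitA array, 0.20 below the scaffold bins. On the BaitC array the same 2 stretches averaged 0.40 ± 0.37, 0.15 below the scaffold bins. The proximal 1 Mb of 3L and 3R averaged 0.58 ± 1.00 on the BaitB array, 0.50 below the scaffold bins. These differences are within the SD over bins. For 3LHET the match was closest: it averaged 1.74 ± 0.64, 1.14 ± 0.67 and 0.47 ± 0.45 on the arrays of BaitA, BaitB and BaitC, against 1.81 ± 0.58, 1.14 ± 0.66 and 0.48 ± 0.32 in the proximal 1 Mb of 3L. 2LHET averaged 2.28 ± 0.60, 1.69 ± 0.69 and 0.43 ± 0.34, against 1.79 ± 0.86, 1.28 ± 0.71 and 0.31 ± 0.39 in the proximal 1 Mb of 2L.

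On the BaitB array, whose bait is on another chromosome, 3RHET averaged 0.94 ± 0.62, against 0.02 ± 0.96 in the first 1 Mb of 3R. On the BaitA and BaitC arrays that first 1 Mb of 3R contains the bait and averaged 3.59 ± 2.12 and 2.18 ± 1.59, and 3RHET averaged 2.25 ± 1.06 and 0.64 ± 0.37.

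The mean of 3RHET on the BaitA array was made of parts at different levels. The split of 3RHET that best separated the BaitA probes fell between the probes at 1599633 and 1599854, so that the 136 bins up to 1600 kb and the 79 bins beyond it are given apart. This split was placed on the values themselves and is a description. The 79 bins beyond 1600 kb averaged 3.33 ± 0.78 on the BaitA array, with a range of 1.48 to 4.89, against 1.62 ± 0.58 and a range of -0.08 to 3.09 in the 136 bins before it, a difference of 1.71. On the BaitB array the same bins averaged 0.87 ± 0.65 beyond 1600 kb and 0.99 ± 0.60 before it. On the BaitC array they averaged 0.72 ± 0.32 beyond and 0.59 ± 0.39 before. The difference was thus -0.12 for BaitB and 0.12 for BaitC, each within the SD over bins. Probe coverage was alike on both sides, with a median of 106 probes per bin beyond 1600 kb and 100 before.

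The change at 1600 kb was abrupt. The last bin before it, 3RHET 1590001 to 1600000, averaged 1.72 on the BaitA array over 137 probes, and the next, 1600001 to 1610000, averaged 3.25 over 32 probes. Over 100 kb windows the BaitA mean was 1.83 ± 0.44 from 1400 to 1500 kb, 1.58 ± 0.70 from 1500 to 1600 kb and 4.00 ± 0.51 from 1600 to 1700 kb. It then declined, to 3.13 ± 0.40 from 1900 to 2000 kb and 2.36 ± 0.44 from 2200 to 2300 kb. From 2300 to 2400 kb it was 3.36 ± 0.75 and from 2400 to 2500 kb 4.35 ± 0.41. The stretch beyond 1600 kb therefore had 2 maxima with a trough between them. The highest single bins lay at 1670001 to 1680000, with 4.89, and at 2450001 to 2460000, with 4.85. With BaitB, these bins were at 0.44 and 0.61, and on the BaitC array at 1.24 and 1.25.

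**Figure D2:**
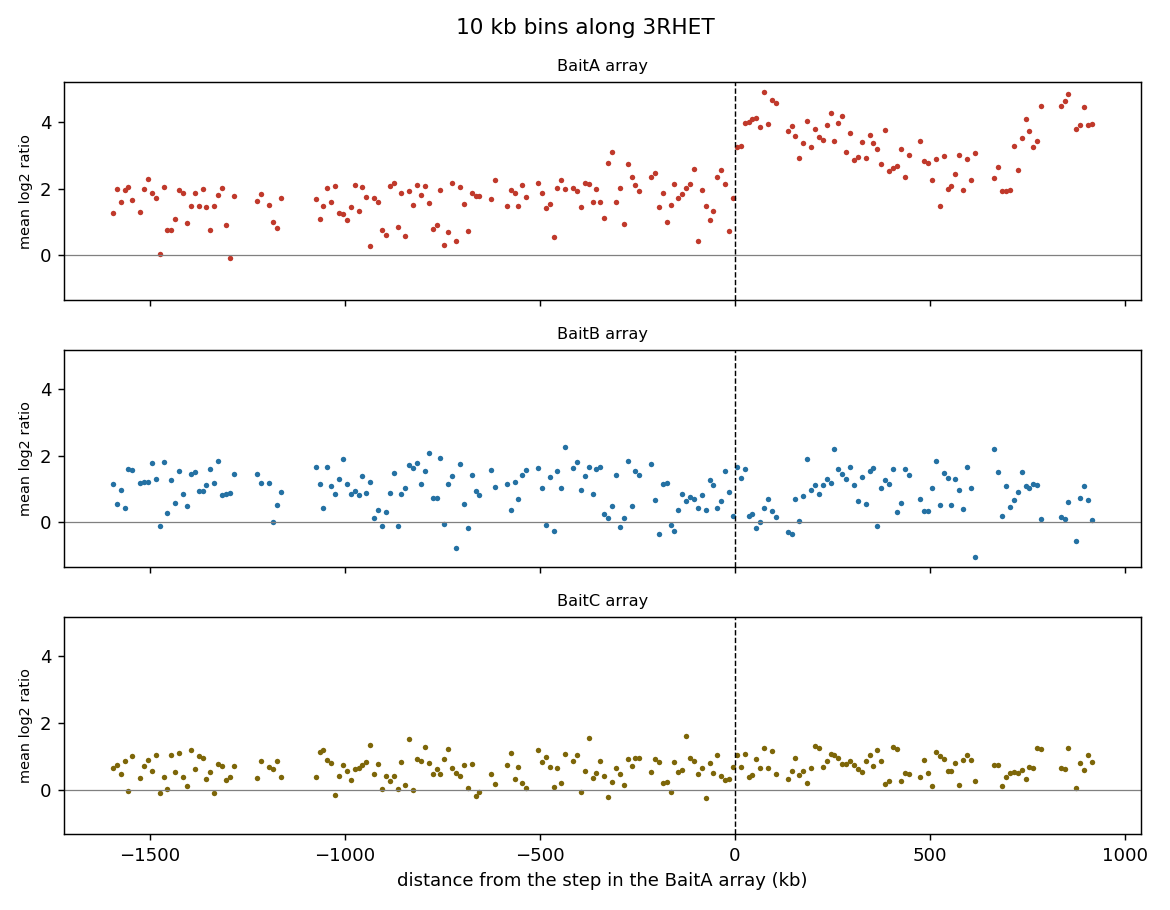
Mean log2 ratio of the 10 kb bins along 3RHET, plotted by distance in kb from the step on the BaitA array (dashed line), 1 panel per array and 1 point per bin. The BaitA points right of the line average 3.33, with a trough in between, against 1.62 left of it, while the BaitB and BaitC points show no step there.

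Few other parts of the genome reached this level on the BaitA array. At or above 3 were 52 of the 79 bins beyond 1600 kb and 1 of the 136 bins before it, where 1.07% of all bins of the array were. At or above 2 were 73 of the 79 and 38 of the 136, with 7.82% of all bins. Similar values were measured on the arm 3R around the bait: the BaitA mean was 7.01 ± 1.02 in the first 100 kb of 3R, 4.64 ± 0.70 from 200 to 300 kb, 3.61 ± 0.44 from 300 to 400 kb and 2.79 ± 0.82 from 500 to 600 kb. How 3RHET is oriented and spaced relative to the arm was not found in the labels or files, so no distance from BaitA can be stated.

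BaitC lies further along 3R, and its array showed no step at 1600 kb. The first 100 kb of 3R averaged 1.07 ± 0.88 on the BaitC array, and the window of 3RHET from 1600 to 1700 kb averaged 0.82 ± 0.30. Among windows of 5 or more bins, the highest BaitC window of 3RHET was at 0.95 ± 0.20 (1800 to 1900 kb) and the lowest at 0.27 ± 0.38 (900 to 1000 kb). On the BaitB array, hybridised to the same slide as BaitA and before it per the file headers (BaitC was on another slide), these 3RHET windows ran from 0.36 ± 0.58 (2400 to 2500 kb) to 1.39 ± 0.38 (1800 to 1900 kb). The lowest BaitB window was thus the highest BaitA window. The bins of 1800 to 1900 kb were the highest of 3RHET on both the BaitB and the BaitC array and averaged 3.74 ± 0.36 on the BaitA array. Among single bins of 3RHET, the lowest for BaitB was 2210001 to 2220000, at -1.04, inside the raised stretch and at 3.07 for BaitA. The highest for BaitB was 1160001 to 1170000, at 2.26, and the lowest for BaitA was 300001 to 310000, at -0.08 over 72 probes. For BaitC the highest was 1470001 to 1480000, at 1.61, and the lowest 1520001 to 1530000, at -0.24.

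Neighbouring bins resembled each other most on 3RHET on the BaitA array, and within it in the stretch beyond 1600 kb. The value over all of 3RHET also pools the different levels on either side of 1600 kb. Pearson's r between adjacent bins was 0.73 over 200 pairs on 3RHET on the BaitA array, against 0.09 on the BaitB array and 0.04 on the BaitC array. For BaitA it was 0.65 over 73 pairs beyond 1600 kb and 0.05 over 126 pairs before. On 3LHET it was 0.11, 0.13 and 0.26 over 216 pairs on the arrays of BaitA, BaitB and BaitC. On the arm 3L it was 0.32, 0.28 and 0.35 over 2436 pairs, and on YHET 0.52, 0.25 and 0.05 over 32 pairs. These coefficients describe bins of 1 array that share a library, and carry no test.

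On 3LHET the first 150 kb stood above the rest on the BaitC array. The 13 bins up to 150 kb averaged 1.22 ± 0.83 on the BaitC array, against 0.43 ± 0.37 in the 219 bins after them. On the BaitA array they averaged 1.94 ± 0.52, against 1.73 ± 0.64, and on the BaitB array 1.34 ± 0.66, against 1.13 ± 0.67. The stretch was chosen after these values were seen, and the best split of the BaitC probes of 3LHET fell at 151 kb. The contrast on the BaitC array is therefore a description, and the split is no further evidence of it. At or above 2 on the BaitC array were 3 of the 13 bins and 0 of the 219, where 1.11% of all bins of the array were. The highest was 3LHET 90001 to 100000, at 2.48 over 32 probes on the BaitC array, 2.52 on the BaitA array and 1.90 on the BaitB array. It was followed by 40001 to 50000, at 2.37 over 132 probes on the BaitC array. Coverage was thinner here, with a median of 65 probes per bin, against 100 in the rest of 3LHET, and the part of coverage in the difference was not tested.

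**Figure D3:**
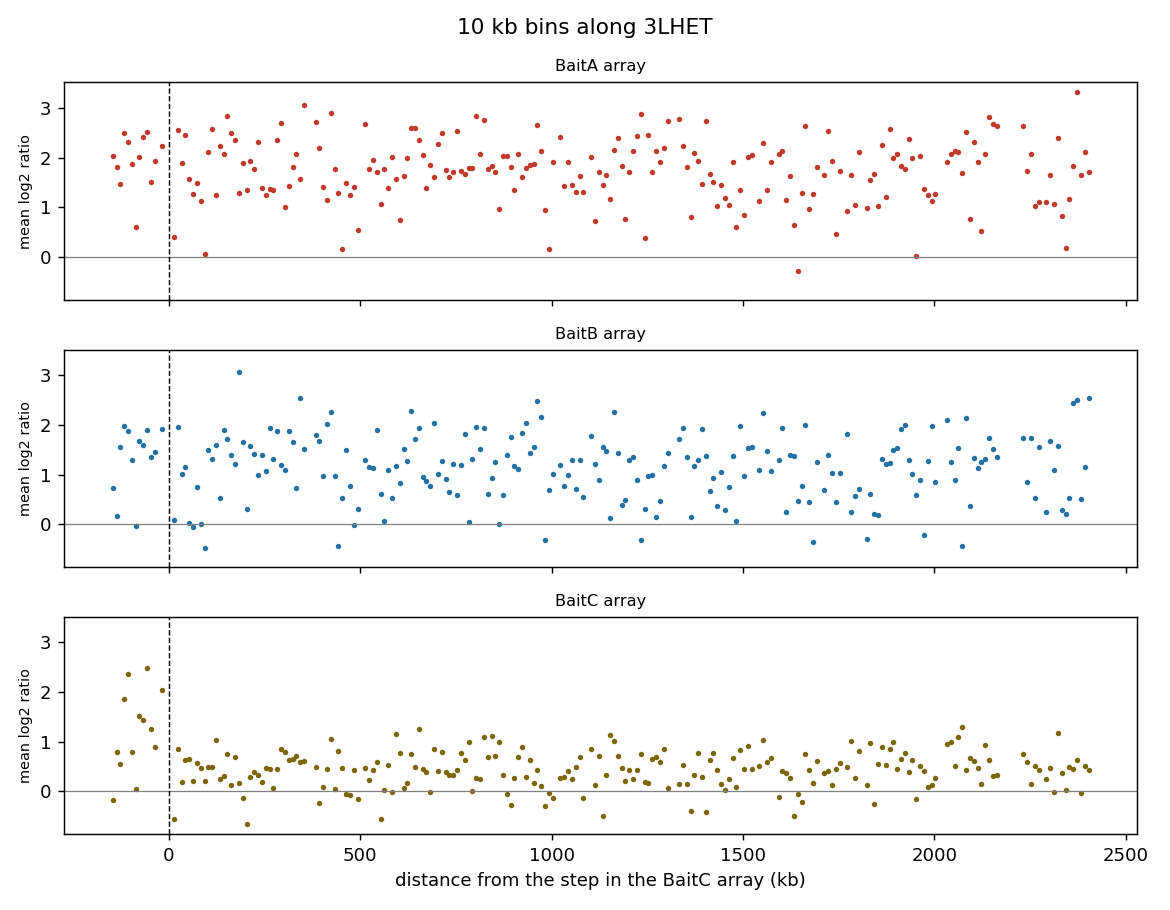
Mean log2 ratio of the 10 kb bins along 3LHET, plotted by distance in kb from the step on the BaitC array (dashed line), 1 panel per array and 1 point per bin. In the BaitC panel the bins left of the line average 1.22 ± 0.83 (SD over bins) and reach 2.48, against 0.43 ± 0.37 right of it. The BaitA bins average 1.94 ± 0.52 left of the line and 1.73 ± 0.64 right of it. For BaitB they average 1.34 ± 0.66 and 1.13 ± 0.67.

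Over 3LHET as a whole, and among windows of 5 or more bins, the BaitA mean ran from 1.27 ± 0.67 (2400 to 2500 kb) to 2.27 ± 0.37 (1400 to 1500 kb), and the BaitB mean from 0.61 ± 0.63 (1900 to 2000 kb) to 1.61 ± 0.99 (from 2500 kb). The highest BaitB bin of 3LHET was 330001 to 340000, at 3.07 over 91 probes, against 1.28 on the BaitA array and 0.18 on the BaitC array. The lowest BaitA bin was 1790001 to 1800000, at -0.28 over 119 probes, with 0.47 on the BaitB array and -0.05 on the BaitC array. The highest BaitA bin, 2520001 to 2530000, was at 3.32 over 48 probes and also reached 2.50 for BaitB, with 0.63 for BaitC. Lowest for BaitB was 240001 to 250000, at -0.49, where BaitA was at 0.06 and BaitC at 0.21. Lowest for BaitC was 350001 to 360000, at -0.66, where BaitA was at 1.34 and BaitB at 0.31.

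2LHET, from the chromosome arm that carries BaitB, was the highest of the 3 scaffolds on the BaitB array, at 1.69, against 1.14 on 3LHET and 0.94 on 3RHET. It was also above 3LHET on the BaitA array, at 2.28 against 1.74, so its place in the order was not confined to the array with its own arm's bait. On the BaitC array the order was 3RHET, 3LHET, 2LHET, at 0.64, 0.47 and 0.43, and neighbours in that order differ by less than the SD over bins. In bins with at least 60 probes 2LHET was still the highest on the BaitB array, at 1.39. On the BaitA array it was then at 2.09, above 3LHET (1.64) but below 3RHET (2.25). The bins from 300 kb to the end of 2LHET were its highest window in all 3 arrays, at 2.92 ± 0.26, 2.07 ± 0.42 and 0.56 ± 0.37 over 5 bins. These 5 bins held only 26 to 56 probes each. Over the 25 bins of 2LHET Pearson's r with probe number was -0.52, -0.60 and -0.26 on the arrays of BaitA, BaitB and BaitC. The bin 2LHET 20001 to 30000 was the lowest of the scaffold on the BaitA and BaitB arrays, at 1.15 and 0.36 over 167 probes, and was at -0.15 on the BaitC array. A single bin, 60001 to 70000, stood at 3.94 on the BaitB array over 30 probes, against 1.90 on the BaitA array and 0.35 on the BaitC array. The highest BaitA bin was 290001 to 300000, at 3.19, next to that last window. The highest BaitC bin was 130001 to 140000, at 1.21, and the lowest was 200001 to 210000, at -0.17, where BaitA was at 2.91.

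Single probes on the scaffolds differed from those on the arms in having fewer low values. On the BaitA array 6.77% of the 46057 scaffold probes lay below -1, against 40.1% of the probes on arms without the bait. On the BaitB array 14.5% did, against 43.9%, and on the BaitC array 9.94%, against 27.7%. The share of high probes depended on the limit. Above 3 lay 28.2% of scaffold probes on the BaitA array, against 14.5% on the arms, but 11.4% against 12.7% on the BaitB array and 2.15% against 2.26% on the BaitC array. The span from the 10th to the 90th percentile was 4.56 on the scaffolds, against 6.43 on the arms, on the BaitA array. With BaitB, it was 4.58, against 6.44, and on the BaitC array 3.11, against 3.91. At lower limits the scaffolds held the larger share: at or above 1 were 53.9% of scaffold probes, against 34.9% on the arms, for BaitB, and 34.5% against 25.9% for BaitC. At or above 2 were 31.0% against 24.2% for BaitB, and 11.7% against 10.1% for BaitC. Scaffold probes were thus fewer at low ratios and more at moderate ones, while for BaitB and BaitC the share above 3 was slightly smaller than on the arms.

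**Figure D4:**
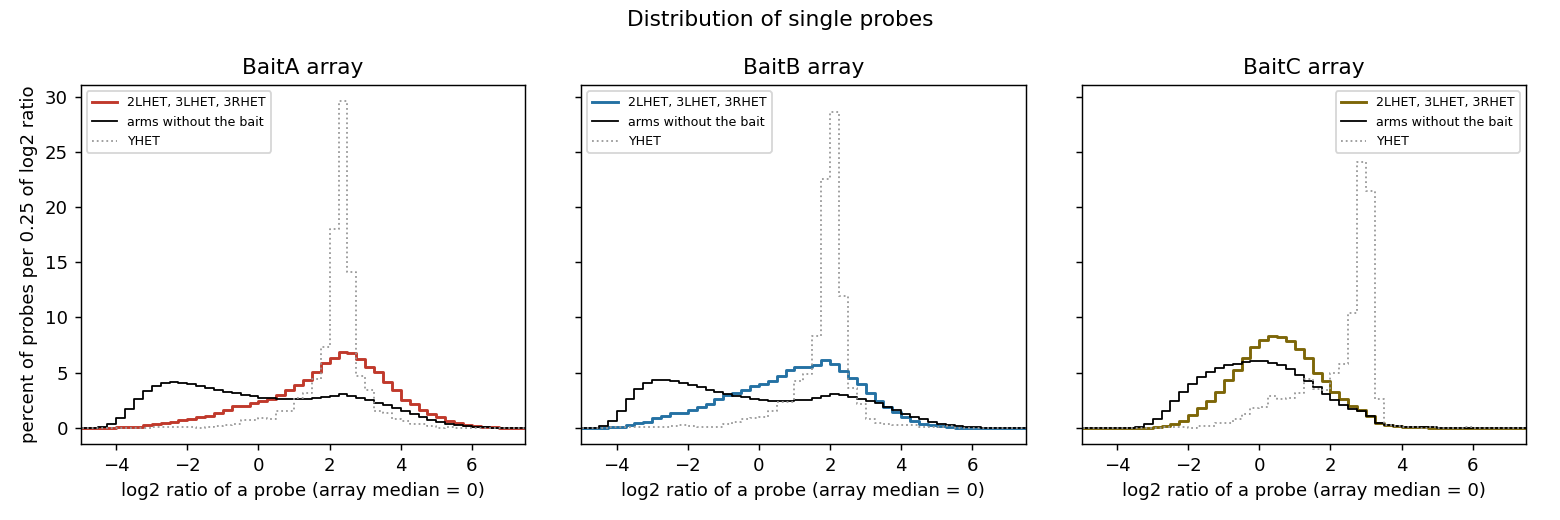
Percent of probes in steps of 0.25 of the log2 ratio for the scaffolds 2LHET, 3LHET and 3RHET together (coloured), the arms without the bait (black) and YHET (dotted), 1 panel per array. The arms have a broad low side, with far fewer scaffold probes there, and YHET forms a narrow spike at a median of 2.30, 1.99 and 2.72 on the arrays of BaitA, BaitB and BaitC.

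The scaffold of the Y chromosome, YHET, serves as the background level, that of a region with little spread between probes. Its probes had a median of 2.30 on the BaitA array, 1.99 on the BaitB array and 2.72 on the BaitC array, and 50.1%, 51.5% and 32.6% of them lay within 0.25 of that median. The median SD of probes within a bin was 1.35 on the 3 scaffolds, against 0.72 on YHET, on the BaitA array, 1.50 against 0.64 on the BaitB array and 1.10 against 0.98 on the BaitC array. The scaffold mean minus the YHET mean was -0.15 for BaitA, -0.72 for BaitB and -1.57 for BaitC. The intensities of the separate channels were not used here, and the part of weak hybridisation in either channel was not tested.

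Set against YHET, the stretch of 3RHET beyond 1600 kb stood apart on the BaitA array. Of its 79 bins, 65 exceeded the highest YHET bin (2.60), as did 3 of the 136 bins before 1600 kb, 20 of the 232 bins of 3LHET, 7 of the 25 of 2LHET and 0.941% of the bins of arms without the bait. On the BaitB array 7 of the 472 scaffold bins exceeded the highest YHET bin (2.46), and on the BaitC array 0 exceeded it (2.92). The first 150 kb of 3LHET had more probes at the YHET level than the rest of that scaffold. This held on all 3 arrays. On the BaitC array 15.6% of its 955 probes lay within 0.25 of the YHET median, against 3.13% in the rest. On the BaitA array 28.4% did, against 13.4%, and on the BaitB array 28.8%, against 11.8%.

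Bins with few probes were higher than bins with many on the BaitA and BaitB arrays. Scaffold bins with 20 to 59 probes averaged 2.20 ± 0.79, and those with 120 or more averaged 1.87 ± 1.01, on the BaitA array. With BaitB, they averaged 1.40 ± 0.69 and 0.81 ± 0.60, and on the BaitC array 0.59 ± 0.48 and 0.55 ± 0.38. Within the class of 120 or more probes the arms without the bait averaged 0.06 ± 0.97, -0.16 ± 0.92 and 0.00 ± 0.53 on the arrays of BaitA, BaitB and BaitC. In that class the scaffolds lay above the arms by 1.82, 0.97 and 0.55. With 60 to 119 probes the differences were 1.28, 0.91 and 0.37, and with 20 to 59 probes 1.37, 1.21 and 0.49, so the scaffolds were above the arms in every class of probe number on the 3 arrays, by less for BaitA and BaitC in the thinner classes.

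The bins of the 3 arrays resembled each other moderately along 3LHET and less along 3RHET. Across the 232 bins of 3LHET Pearson's r of BaitA was 0.49 with BaitB and 0.34 with BaitC, and BaitB had 0.25 with BaitC. Across the 215 bins of 3RHET the same pairs gave -0.01, 0.23 and 0.22. For BaitA and BaitB it was 0.34 over the 136 bins before 1600 kb and -0.18 over the 79 bins beyond. The coefficients describe bins that share the probes and their number, and carry no test.

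The authors called peaks on each array separately, with a reference height for each scaffold, and deposited a false discovery rate (FDR) with each. Heights and FDR values are the authors'. The scaffold bins held 250 BaitA peaks of FDR at most 0.05, or 53.0 per Mb, against 29.9 per Mb on the arms without the bait. They held 172 BaitB peaks, or 36.4 per Mb, against 31.5, and 126 BaitC peaks, or 26.7 per Mb, against 27.1. Per 10000 probes, which allows for the thinner coverage of the scaffolds, there were 54.7 against 17.7 for BaitA, 37.7 against 18.5 for BaitB and 27.6 against 16.0 for BaitC. At an FDR of at most 0.01 the BaitA count fell to 10.2 per Mb, against 2.15 on the arms, which is below BaitB (14.2 against 10.8) and BaitC (13.8 against 12.9), so the order of the arrays by peak count turned with the FDR limit. The lowest height called was 3.54 on the scaffolds, against 4.07 on the arms, for BaitA, 3.44 against 4.04 for BaitB and 2.54 against 2.86 for BaitC, over the scaffolds together. The minimum differed between scaffolds: for BaitA it was 3.54 on 2LHET, 3.75 on 3LHET and 4.12 on 3RHET, the last above that of the arms. Bins with the centre of a peak numbered 146 of 472 for BaitA (30.9%, where 22.1% of all bins had one), 141 for BaitB (29.9%, with 24.3%) and 97 for BaitC (20.6%, with 20.6%). The BaitC share is at that of all bins. YHET, the background level with little probe spread, held more peaks per Mb and per 10000 probes than the scaffolds on every array. For BaitA, BaitB and BaitC it held 162, 100 and 103 per Mb, and 211, 130 and 134 per 10000 probes.

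BaitA peaks were concentrated where the BaitA bins were high. They were called on the same values with a reference height for each scaffold, so a raised stretch holds more of them. The counts are therefore a description and no further evidence of the step. Of the 79 bins of 3RHET beyond 1600 kb, 52 held a BaitA peak (65.8%), against 19 of the 136 bins before (14.0%). Of all bins of that array 22.1% held one, so the share before 1600 kb was below that of all bins. For BaitB 22 of the 79 (27.8%) and 40 of the 136 (29.4%) held one, with 24.3% of all bins. For BaitC 19 (24.1%) and 26 (19.1%) did, with 20.6% of all bins. Peaks are ranked here by the mean ratio of their probes, not by the authors' height. The first BaitA peak of the scaffolds was 3RHET 2494591 to 2495081, which averaged 6.64 ± 0.62 (SD over 10 probes) on the BaitA array, 0.85 ± 3.06 on the BaitB array and -0.02 ± 0.60 on the BaitC array. Its flanks 1 to 10 kb away averaged 3.61 on the BaitA array. The next, 3RHET 1672445 to 1672831, averaged 6.50 ± 0.32 over 8 probes on the BaitA array, -1.51 ± 2.51 on the BaitB array and 1.16 ± 2.19 on the BaitC array, with BaitA flanks at 4.30. Both stand on flanks that are themselves high.

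Elsewhere the highest peaks were short and stood on lower flanks. The highest BaitA peak of 2LHET (152138 to 152347) averaged 6.40 ± 0.45 over 4 probes on the BaitA array, 3.68 ± 0.26 on the BaitB array and 0.36 ± 1.62 on the BaitC array, with BaitA flanks at 2.03. The highest BaitB peak of the scaffolds, 3LHET 1757312 to 1757534, averaged 6.16 ± 0.24 over 4 probes on the BaitB array, -0.19 ± 0.60 on the BaitA array and 0.97 ± 0.72 on the BaitC array, with BaitB flanks at 1.01. On 3RHET the BaitB peak with the highest probe mean (612822 to 613026) averaged 5.01 ± 0.37 over 4 probes on the BaitB array, against 0.41 ± 0.73 on the BaitA array. By the authors' height it stood at 4.33, below the peak at 143728 to 144257, whose height was 5.00 and whose probe mean was 4.80 ± 0.73 over 10 probes.

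The BaitC peaks with the highest probe means on the scaffolds were on 3RHET. The peak at 2204470 to 2204796 averaged 4.86 ± 0.62 over 7 probes on the BaitC array, 3.55 ± 0.34 on the BaitA array and -1.39 ± 1.02 on the BaitB array, and lies in the trough of the BaitA stretch. Its BaitC flanks averaged 0.61. The peak at 2160464 to 2160968 averaged 4.68 ± 0.68 over 8 probes on the BaitC array, 3.68 ± 1.10 on the BaitA array and 0.35 ± 0.93 on the BaitB array. The peak at 1477855 to 1478895 averaged 4.53 ± 0.60 over 19 probes on the BaitC array, 2.80 ± 0.44 on the BaitA array and -1.40 ± 0.63 on the BaitB array. On the BaitA array the flanks of these 3 peaks averaged 2.51, 2.23 and 1.83, and the first 2 peaks lie in the raised stretch beyond 1600 kb.

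One interval of 2LHET had the highest probe mean among the BaitB peaks and among the 2 BaitC peaks of that scaffold, and was low in BaitA. The BaitC peak at 165948 to 166317 averaged 3.22 ± 0.49 over 7 probes on the BaitC array, 4.80 ± 0.24 on the BaitB array and -0.79 ± 0.61 on the BaitA array. By the authors' height this BaitC peak stood at 3.33, below the other BaitC peak, 132279 to 134430, at 3.80. The BaitB peak overlapping 165948 to 166317, at 166103 to 166317, averaged 4.93 ± 0.24 over 4 probes on the BaitB array. Its flanks averaged 1.47 on the BaitB array, 0.20 on the BaitC array and 2.33 on the BaitA array, so that the BaitA array dipped where the others peaked.

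Shared peaks were a minority of each list. Of 251 BaitA peaks of FDR at most 0.05 on the scaffolds, 12.4% overlapped a BaitB peak by at least 1 bp (exact 95% binomial interval 8.55 to 17.1%) and 9.56% a BaitC peak (6.22 to 13.9%). Of 172 BaitB peaks, 17.4% overlapped a BaitA peak and 10.5% a BaitC peak. Of 126 BaitC peaks, 16.7% overlapped a BaitA peak and 14.3% a BaitB peak. Over all peaks of the arrays at that FDR, the shares were 8.74% and 7.32% for BaitA peaks (with BaitB and BaitC peaks), 7.51% and 6.13% for BaitB peaks (with BaitA and BaitC peaks) and 7.92% and 7.69% for BaitC peaks (with BaitA and BaitB peaks). These were lower than on the scaffolds in each of the 6 pairings. The part of the higher peak number per 10000 probes in this was not tested.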

How the data were processed

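Each of the 3 arrays compared 4C product (Cy5) with unligated DNA (Cy3), per the labels. The deposited values are log2 ratios per probe (2157868 probes). Their base and centring are not stated in the sources used here, and base 2 was assumed. Deposited medians were -0.16, -0.14 and -0.02 for BaitA, BaitB and BaitC and were subtracted here. Probes were averaged in 10 kb bins with at least 20 probes (Python 3.11.15, pandas 2.3.3, scipy 1.17.1). The binning and the split were tested on simulated data.

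Peaks were called with NimbleScan using shuffled values, per the file headers. Their heights are on the log2 scale, and the deposited FDR serves as a q-value. A peak belonged to the bin of its centre. Only the 5 major arms served as arms. Channel intensities were not used here, and the number of arrays limits the precision. 0 value columns belonged to no sample.

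The bins and lists were chosen with earlier results of these data known. The rule for naming genes took listed genes on the scaffolds, genes at the highest peaks and genes with the highest or lowest span mean. It named none, because the tables pair no gene with these scaffolds. Regions were named as the highest and lowest bin of a scaffold in an array. The split at 1600 kb, the stretch of 150 kb and the choice of peaks described were made after their values were seen. Alternatives covered centring, bin size, probe minimum, probe median, comparison region, limits and FDR.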

Additional observations from a re-analysis of the deposited data

Results flagged for a closer look

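The difference between the 3RHET bins beyond and before 1600 kb was 1.71 for BaitA and -0.12 for BaitB, which are of opposite sign. The difference between the arrays was not tested, since each bait has 1 array, and the split was placed on the BaitA values.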

How the results depend on the processing

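None of the 174 alternative values changed sign, though the shares, peak densities and gene counts among them could not. Of the 174, 149 stayed within the spread over bins, the binomial interval or 1.5 times the main count. These include all 24 alternative values of the mean over the 3 scaffolds, all 66 of the single scaffold means and all 12 of the 3RHET difference at 1600 kb, which ran from 1.62 to 1.78 for BaitA. The 149 also include values that could not move. These are the 6 gene counts, each 0, and the differences between scaffolds and arms under other centring. Other centring also shifted all scaffold means of an array by the same amount, which was less than their SD over bins. For the 3RHET difference the limit was the SD over all 3RHET bins, 1.06 for BaitA in the main setting. That SD includes the step itself, so staying within it was a weak check. Against only the arm bins within 1 Mb of the centromere, the scaffold difference was 0.20 for BaitA and 0.50 for BaitB, and in units of the arm SD it was 1.00 for BaitC. Peaks per Mb moved in 8 of 9 alternative values and the share of bins at or above 1 in 14 of 27. That share for BaitA was 92.8% with centring on the arms without the bait, 84.7% without centring and 95.5% in 20 kb bins. For BaitB it was 79.7% with centring on those arms, 51.1% without centring and 51.8% with at least 60 probes. For BaitC it was 16.5% in 5 kb bins and 6.88% in 20 kb bins. With the limit at the 95th percentile of the arms without the bait, the shares were 55.7%, 33.1% and 21.8% for BaitA, BaitB and BaitC, and at a limit of 2 they were 44.7%, 5.93% and 0.636%. Peaks per Mb were 10.2, 14.2 and 13.8 at FDR at most 0.01 and 137.5, 77.3 and 58.5 at FDR at most 0.2. Only counting peaks with a probe mean of at least 4 gave 18.6 for BaitB and 1.69 for BaitC. The value of 1.00 for BaitC is a change of unit, and the shifts with the limits and the FDR follow from those settings. The cause of the other shifts was not tested. Leaving out 3RHET beyond 1600 kb, an alternative chosen after seeing the data, gave a mean of 1.73 for BaitA. No paired analysis was possible because each bait has 1 array, and leaving out replicates could not be run.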
